A study of Mus musculus with 12 samples.

Results

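The NF-kB subunits and their inhibitors were followed in dendritic cells (DCs) sorted from the small intestine of mice. The 10 genes were taken by name as a list: the subunits Nfkb1, Nfkb2, Rel, Rela and Relb, the inhibitors of the IkB family Nfkbia, Nfkbiz, Nfkbid and Nfkbie, and Tnfaip3. All 10 were found among the 53801 genes of the files, and all 10 had 5 or more counts in each of the 12 samples, with between 212 and 3988 counts per gene and sample. Animals were labelled wild type (WT) or Cbfb-cKO, both on a mixed background, and CD103+CD11b- and CD103-CD11b+ DCs were sorted by flow cytometry from each, with 3 samples from different mice in each of the 4 groups. In the Cbfb-cKO animals a floxed Cbfb, the gene for the shared partner of the Runx transcription factors, is deleted by Cre under the CD11c promoter, which is also active to some extent in T cells. The labels name no Cre for the WT animals, and no treatment, age or sex for any group. The comparisons asked how the mRNA levels of NF-kB genes differ between the DC subsets, and between the genotypes within a subset. In GRCm38 the subunit genes are Nfkb1 (ENSMUSG00000028163) at chr3:135584655-135691547 on the minus strand, Nfkb2 (ENSMUSG00000025225) at chr19:46304320-46312385 on the plus strand and Rel (ENSMUSG00000020275) at chr11:23736847-23770970 on the minus strand. The others are Rela (ENSMUSG00000024927) at chr19:5637483-5648130 on the plus strand and Relb (ENSMUSG00000002983) at chr7:19606217-19629438 on the minus strand. The IkB genes are Nfkbia (ENSMUSG00000021025) at chr12:55489410-55492647 on the minus strand and Nfkbiz (ENSMUSG00000035356) at chr16:55811375-55838899 on the minus strand, and Nfkbid (ENSMUSG00000036931) at chr7:30421732-30428746 on the plus strand and Nfkbie (ENSMUSG00000023947) at chr17:45555703-45563169 on the plus strand. The remaining gene is Tnfaip3 (ENSMUSG00000019850) at chr10:19000910-19015657 on the minus strand.

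NF-kB is a family of transcription factors that act as dimers. In a resting cell the dimers are held in the cytoplasm by IkB proteins, of which Nfkbia encodes the classical form. Signals from Toll-like receptors, IL-1 family receptors and TNF family receptors activate IkB kinase, IkB is degraded, and the dimers enter the nucleus. Rela and Rel carry transactivation domains and pair with the product of Nfkb1 in the classical pathway, while Relb pairs with the product of Nfkb2 in the alternative pathway. Many inhibitors are themselves NF-kB target genes and so form feedback loops: Nfkbia and Nfkbie encode cytoplasmic inhibitors, Nfkbiz and Nfkbid encode nuclear IkB proteins that modulate the choice of target genes, and Tnfaip3 encodes a ubiquitin-editing enzyme that shuts off signalling upstream of the kinase. In DCs the pathway is known for its part in maturation and cytokine production.

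Promoter sequences are shown for Nfkbia, Tnfaip3, Nfkbid, Rel and Nfkb2, in which a strict kappa B motif was found, and for Nfkbie, in which it was not. Each is 300 bases of RefSeq sequence (GRCm38.p6), from 250 bases before the annotated start to 50 after it, 5′ to 3′ on the strand of the gene. Capitals mark matches on either strand to a strict kappa B motif, which is GGG, any 2 bases, and then TTTCC or TTCCC, and in Rel also a match to the Runx motif TGTGGT.
Nfkbia, chr12:55492598-55492897, minus strand: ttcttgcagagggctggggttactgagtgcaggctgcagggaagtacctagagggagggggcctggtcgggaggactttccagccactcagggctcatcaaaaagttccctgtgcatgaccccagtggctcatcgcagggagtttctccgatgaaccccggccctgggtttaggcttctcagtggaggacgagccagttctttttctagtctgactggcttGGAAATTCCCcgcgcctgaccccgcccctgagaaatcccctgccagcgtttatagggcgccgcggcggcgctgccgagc
Tnfaip3, chr10:19015361-19015660, minus strand: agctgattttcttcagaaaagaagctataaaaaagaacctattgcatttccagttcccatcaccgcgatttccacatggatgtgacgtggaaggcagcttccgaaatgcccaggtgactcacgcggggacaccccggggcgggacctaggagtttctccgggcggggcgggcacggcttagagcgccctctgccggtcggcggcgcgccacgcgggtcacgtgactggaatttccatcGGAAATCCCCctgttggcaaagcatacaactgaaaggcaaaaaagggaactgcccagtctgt
Nfkbid, chr7:30422156-30422455, plus strand: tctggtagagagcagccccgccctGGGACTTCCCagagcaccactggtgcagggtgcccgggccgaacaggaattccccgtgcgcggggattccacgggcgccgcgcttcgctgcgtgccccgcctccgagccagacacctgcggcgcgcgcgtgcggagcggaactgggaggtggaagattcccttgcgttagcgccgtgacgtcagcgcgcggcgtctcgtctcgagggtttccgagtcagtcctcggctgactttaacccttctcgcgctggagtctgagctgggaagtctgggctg
Rel, chr11:23770920-23771219, minus strand: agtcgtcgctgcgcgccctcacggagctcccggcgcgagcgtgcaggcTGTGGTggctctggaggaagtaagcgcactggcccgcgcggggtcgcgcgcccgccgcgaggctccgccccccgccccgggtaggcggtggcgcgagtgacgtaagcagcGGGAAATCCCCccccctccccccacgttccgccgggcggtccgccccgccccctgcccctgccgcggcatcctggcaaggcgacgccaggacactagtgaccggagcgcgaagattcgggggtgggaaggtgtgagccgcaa
Nfkb2, chr19:46304487-46304786, plus strand: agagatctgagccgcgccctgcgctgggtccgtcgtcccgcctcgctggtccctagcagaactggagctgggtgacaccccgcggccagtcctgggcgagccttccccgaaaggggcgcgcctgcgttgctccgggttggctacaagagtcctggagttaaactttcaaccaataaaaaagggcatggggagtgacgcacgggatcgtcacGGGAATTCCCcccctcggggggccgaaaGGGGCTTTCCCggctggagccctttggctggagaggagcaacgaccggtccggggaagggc
Nfkbie, chr17:45555450-45555749, plus strand: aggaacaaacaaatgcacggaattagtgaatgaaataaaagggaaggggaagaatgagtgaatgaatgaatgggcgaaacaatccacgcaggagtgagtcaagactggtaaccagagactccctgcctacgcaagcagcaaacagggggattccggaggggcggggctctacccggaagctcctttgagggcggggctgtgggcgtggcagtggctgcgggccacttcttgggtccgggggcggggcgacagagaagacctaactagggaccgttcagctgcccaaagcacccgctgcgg

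RefSeq listed 12 such windows for 7 of the genes (Nfkbia, Nfkbid, Nfkbie, Rel, Rela, Nfkb2 and Tnfaip3), and the strict kappa B motif was found in 7 of the 12, which belong to 5 genes. Of all 32851 windows, 3.24% held it. The 2 spellings can overlap, as they do in Rel and in Nfkb2, and 2 of the 3 Nfkb2 windows share bases, so the windows are not independent. The match in Nfkbia began 29 bases before the start and that in Tnfaip3 12 bases before it, so both lie beside the point where transcription begins. A looser form, GGG, any 5 bases and CC, was in all 12 windows and in 50.8% of all windows. The Runx motif, searched as TGTGGT or TGCGGT on both strands, was in 2 of the 12 windows (1 of Rel and 1 of Nfkbid) and in 22.4% of all windows. A match is a string of letters and was not tested for binding.

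Each library held 2161929 to 5863484 counts on genes. Levels are given as CPM, counts scaled to the library size after TMM normalization, and 20580 genes passed a minimum of 5 counts in any sample. The quasi-likelihood test of edgeR gave the p-values, which were adjusted over those genes by Benjamini-Hochberg, and a gene was called at an adjusted p under 0.05 with no limit on its fold change. Cbfb itself had between 199 and 228 CPM in WT and between 215 and 290.2 CPM in Cbfb-cKO CD103+CD11b- DCs, and between 161 and 217 CPM in WT and between 169.6 and 273 CPM in Cbfb-cKO CD103-CD11b+ DCs, so counts over the whole gene overlapped between the genotypes and did not check the labels. The 7 cDC1 markers, which mark the CD103+CD11b- lineage, summed to between 2861 and 4737 CPM in CD103+CD11b- samples and between 380.2 and 758 CPM in CD103-CD11b+ samples. The 6 cDC2 markers summed to between 82.9 and 663 CPM in the former and between 1191 and 1742 CPM in the latter. The subsets therefore carried their defining markers. Replicate 3 of the Cbfb-cKO CD103-CD11b+ group had the fewest counts of the 12 samples and the highest level of all 10 NF-kB genes except Rela. Those values of the 10 genes that it moved most are also given without it, and values of other single genes are given with it.

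Between the subsets, 3 of the 5 inhibitor genes (Nfkbiz, Nfkbid and Tnfaip3) were called higher in CD103-CD11b+ DCs in both genotypes. Of the 10 genes, 5 were called higher in WT (Nfkbiz, Nfkbid, Tnfaip3, Rela and Nfkb1) and 4 in Cbfb-cKO (Nfkbid, Nfkbie, Nfkbiz and Tnfaip3), and none was called lower. Over all tested genes, 11.8% were called higher and 7.25% lower in WT, and 9.32% higher and 7.06% lower in Cbfb-cKO. For the 10 genes the median log2 fold change was 0.53 in WT and 0.56 in Cbfb-cKO, beside medians of 0.066 and 0.11 over all tested genes. Without replicate 3 of the Cbfb-cKO CD103-CD11b+ group the median in Cbfb-cKO was 0.31, with 8 instead of 10 genes above 0, and without replicate 3 of all 4 groups it was 0.25. The 3 genes called in both are 60% of the members called in WT and 75% of those called in Cbfb-cKO, beside 37.4% and 47.3% for all genes called higher in each. These are levels in sorted bulk samples, in which more cells of a type and more RNA per cell cannot be told apart.

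Nfkbiz encodes the nuclear protein IkB-zeta, which is needed for the induction of some secondary response genes. It had 213, 195 and 227 CPM in the 3 WT CD103+CD11b- samples and 336, 529 and 656 CPM in the 3 WT CD103-CD11b+ samples. In Cbfb-cKO mice the values were 172, 187 and 235 CPM and 361, 433 and 808 CPM. The subsets did not overlap in either genotype. The fold change on the log2 scale of CD103-CD11b+ over CD103+CD11b- was 1.26 ± 0.30 (SE), with a 95% interval of 0.59 to 1.92 and an edgeR adjusted p of 0.0177 in WT. In Cbfb-cKO it was 1.43 ± 0.30 (SE), with a 95% interval of 0.76 to 2.10 and an edgeR adjusted p of 0.00867.

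Tnfaip3 followed the same pattern at a higher count. Its CPM was 323, 309 and 390.0 in WT CD103+CD11b- DCs and 550.1, 730.0 and 828 in WT CD103-CD11b+ DCs. In Cbfb-cKO mice it was 237, 266 and 391 CPM in CD103+CD11b- and 547, 611 and 1307 CPM in CD103-CD11b+ DCs. Each sample of the CD103-CD11b+ subset stood above every sample of the other, and replicate 3 of the Cbfb-cKO CD103-CD11b+ group stood far above the rest. On the log2 scale the difference was 1.04 ± 0.32 (SE), with a 95% interval of 0.35 to 1.74 and an edgeR adjusted p of 0.0418 in WT. The same contrast in Cbfb-cKO gave 1.46 ± 0.32 (SE), with a 95% interval of 0.76 to 2.17 and an edgeR adjusted p of 0.0100.

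Nfkbid, which encodes the nuclear protein IkB-NS, had the fewest counts of the 10 genes in WT CD103+CD11b- DCs. In WT mice it had 72.5, 70.7 and 107 CPM in CD103+CD11b- and 145, 143 and 213 CPM in CD103-CD11b+ DCs. In Cbfb-cKO mice it had 75.0, 83.7 and 113 CPM and 189, 217 and 359 CPM in these subsets. There was no overlap between the subsets. Its log2 fold change was 0.997 ± 0.28 (SE), with a 95% interval of 0.39 to 1.60 and an edgeR adjusted p of 0.0301 in WT. In Cbfb-cKO it gave the largest estimate among the 10 genes, 1.49 ± 0.28 (SE), with a 95% interval of 0.88 to 2.10 and an edgeR adjusted p of 0.00416.

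Nfkbie encodes IkB-epsilon, a cytoplasmic inhibitor that is made after stimulation. Its levels were 138, 121 and 115 CPM in WT CD103+CD11b- and 203, 145 and 219.6 CPM in WT CD103-CD11b+ DCs. The Cbfb-cKO samples had 109, 114 and 118 CPM and 177, 211 and 297 CPM. In both genotypes the subsets were separate, in WT by a gap from 138 to 145 CPM. Its log2 fold change in WT was 0.60 ± 0.19 (SE), with a 95% interval of 0.18 to 1.03 and an edgeR adjusted p of 0.0508, which did not pass the test. In Cbfb-cKO it was 1.004 ± 0.20 (SE), with a 95% interval of 0.57 to 1.43 and an edgeR adjusted p of 0.00524.

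Nfkbia, the gene for the classical inhibitor, did not pass edgeR's quasi-likelihood test between the subsets in either genotype, but in WT it was called by DESeq2 and by edgeR's likelihood ratio test. It had 117, 104 and 115 CPM in WT CD103+CD11b- and 139, 209.6 and 245 CPM in WT CD103-CD11b+ DCs. In Cbfb-cKO mice the values were 147, 152 and 189.7 CPM and 153, 171 and 322 CPM, and the subsets overlapped there. The log2 fold change between subsets was 0.82 ± 0.27 (SE), with a 95% interval of 0.22 to 1.42 and an edgeR adjusted p of 0.0588 in WT. In Cbfb-cKO it was 0.40 ± 0.27 (SE), with a 95% interval of -0.20 to 1.0004 and an edgeR adjusted p of 0.345, and without replicate 3 of the CD103-CD11b+ group it was -0.0042. The difference between the genotypes in this contrast was -0.42 with a 95% interval of -1.27 to 0.43.

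Of the subunits, Nfkb1 and Rela were called higher in WT CD103-CD11b+ DCs. Nfkb1, the gene for p105 and p50, had 450.0, 427 and 379 CPM in WT CD103+CD11b- and 589, 534 and 593 CPM in WT CD103-CD11b+ samples. In Cbfb-cKO it had 494, 522 and 511 CPM and 599.6, 594 and 833 CPM. The subsets were separate in both genotypes. Its log2 fold change was 0.45 ± 0.14 (SE), with a 95% interval of 0.15 to 0.75 and an edgeR adjusted p of 0.0414 in WT. In Cbfb-cKO the difference, 0.41 ± 0.14 (SE), with a 95% interval of 0.11 to 0.71 and an edgeR adjusted p of 0.0645, did not pass, and it was 0.23 without replicate 3 of the CD103-CD11b+ group.

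Rela, the gene for p65, had 127, 121 and 128 CPM in WT CD103+CD11b- and 145, 172 and 186 CPM in WT CD103-CD11b+ DCs. The Cbfb-cKO samples had 128, 143 and 145 CPM and 133, 143 and 173 CPM. WT subsets were separate, and Cbfb-cKO subsets overlapped. For Rela the log2 fold change was 0.42 ± 0.13 (SE), with a 95% interval of 0.15 to 0.70 and an edgeR adjusted p of 0.0389 in WT. In Cbfb-cKO it was 0.11 ± 0.13 (SE), with a 95% interval of -0.17 to 0.39 and an edgeR adjusted p of 0.583.

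Rel, the gene for c-Rel, spanned the widest range of CPM among the subunits. It had 524, 546 and 612 CPM in WT CD103+CD11b- and 559, 533 and 948 CPM in WT CD103-CD11b+ DCs. In Cbfb-cKO mice it had 617, 758 and 953 CPM and 809.8, 949 and 1947 CPM. Replicate 3 was the highest in all 4 groups, and the subsets overlapped in both genotypes. The log2 fold change between subsets was 0.28 ± 0.32 (SE), with a 95% interval of -0.43 to 0.99 and an edgeR adjusted p of 0.591 in WT. In Cbfb-cKO it was 0.67 ± 0.32 (SE), with a 95% interval of -0.045 to 1.38 and an edgeR adjusted p of 0.183, and with the replicate number as a block it was 0.58 with an edgeR adjusted p of 0.0475. With replicate 3 of the CD103-CD11b+ group left out and no block it was 0.18. This block is given because samples of the same number deviated together in the Cbfb-cKO subsets, and it changed no other call of the 10 genes there.

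Relb and Nfkb2, which act together in the alternative pathway, were called in neither genotype by edgeR's quasi-likelihood test. Relb had 129.9, 132 and 106 CPM in WT CD103+CD11b- and 139, 116 and 136 CPM in WT CD103-CD11b+ DCs, and 143, 167 and 107 and 195, 171 and 209.6 CPM in the Cbfb-cKO subsets. The WT subsets overlapped, and the Cbfb-cKO subsets were separate. Its log2 fold change between subsets was 0.085 (SE 0.16, edgeR adjusted p = 0.767) in WT and 0.46 (SE 0.16, edgeR adjusted p = 0.0811) in Cbfb-cKO, where DESeq2 called it, as did the quasi-likelihood test when Cbfb-cKO CD103+CD11b- replicate 2 was left out. Nfkb2 had 170.3, 174 and 169 CPM in WT CD103+CD11b- and 201, 178 and 197 CPM in WT CD103-CD11b+ DCs, and 202, 234 and 194 and 217, 224 and 286 CPM in the Cbfb-cKO subsets. The WT subsets were separate by a small margin, and the Cbfb-cKO subsets overlapped. Its log2 fold change was 0.17 (SE 0.12, edgeR adjusted p = 0.364) in WT and 0.20 (SE 0.12, edgeR adjusted p = 0.275) in Cbfb-cKO. Exons of Nfkb2 share 531 bases with AC114539.1 and 299 bases with Psd on the other strand, and counting without strand cannot tell such reads apart.

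**Figure D1:**
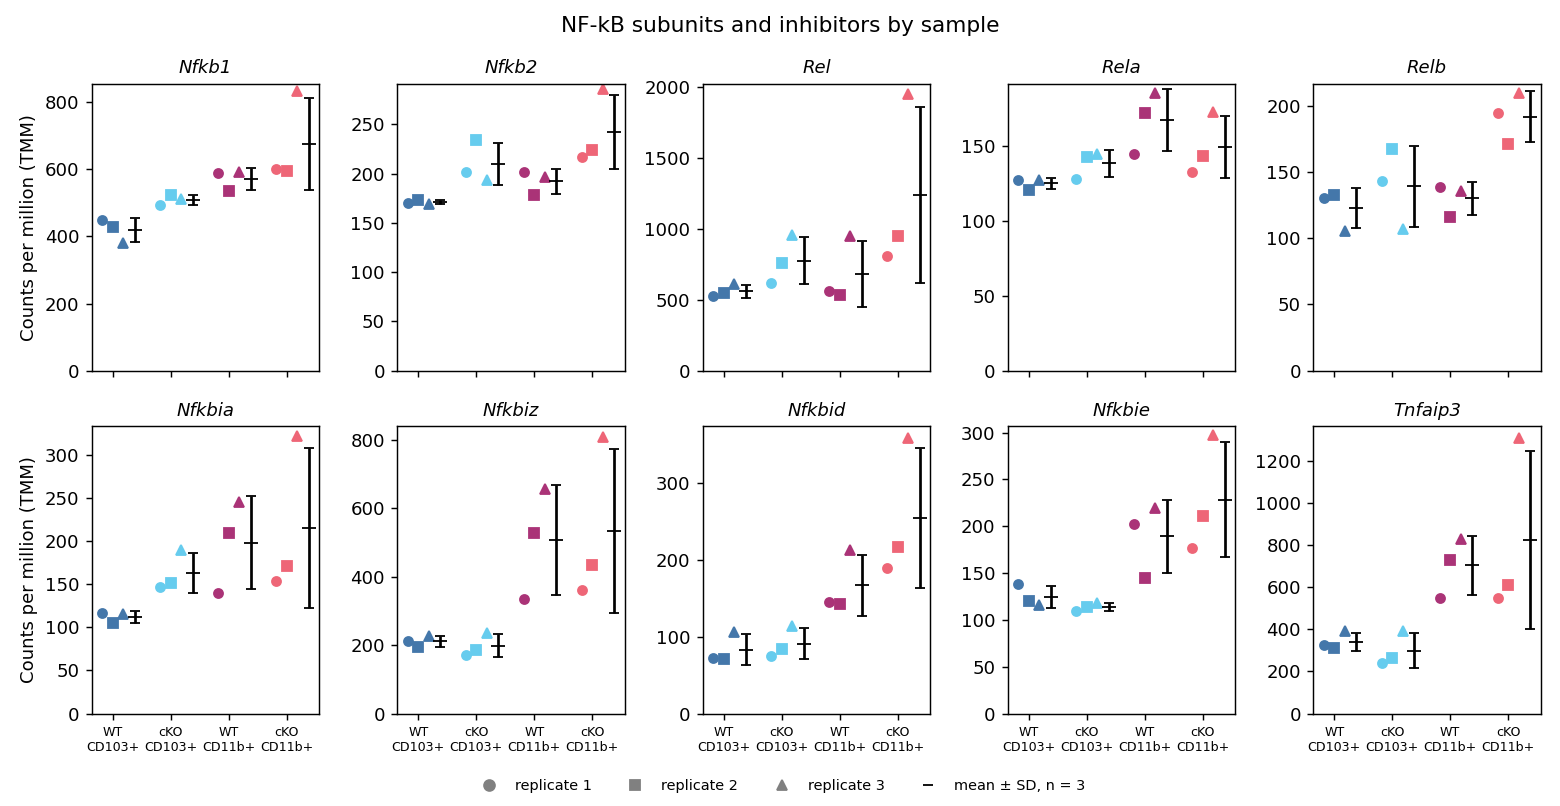
Levels of the 10 NF-kB genes in CPM (vertical axis, from 0, 1 scale per gene) in the 4 groups, with 1 point per sample and a symbol for each replicate number; the black mark is the mean ± SD (n = 3). The 5 inhibitor genes in the lower row are higher in WT CD103-CD11b+ than in WT CD103+CD11b- DCs with no overlap, and replicate 3 of the Cbfb-cKO CD103-CD11b+ group stands above its group in every panel.

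Counted by separation alone, 8 of the 10 genes were higher in every WT CD103-CD11b+ sample than in every WT CD103+CD11b- sample, all 5 inhibitors among them, beside 21.4% of all tested genes. In Cbfb-cKO mice 6 of the 10 were, beside 18.4%. No member was separate in the other direction, beside 16.7% of all tested genes in WT and 15.6% in Cbfb-cKO. The 5 calls in WT depended on single samples. None of them was made without WT CD103+CD11b- replicate 1 or replicate 2, without WT CD103-CD11b+ replicate 2 (where Nfkbie was called instead) or without WT CD103-CD11b+ replicate 3, and 2 were made without WT CD103+CD11b- replicate 3 or without Cbfb-cKO CD103+CD11b- replicate 1 or 2. Without Cbfb-cKO CD103-CD11b+ replicate 1, 3 were made. In Cbfb-cKO the 4 calls were made whichever sample was left out. Without replicate 3 of the Cbfb-cKO CD103-CD11b+ group the log2 fold changes there were 1.17 for Nfkbid, 0.77 for Nfkbie, 1.01 for Nfkbiz and 0.96 for Tnfaip3.

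Markers of some other cell types differed between the subsets. Per sample, the 8 macrophage markers summed to between 13.8 and 58.3 CPM in CD103+CD11b- and between 159 and 491 CPM in CD103-CD11b+ DCs, and 7 of the 8 were called higher in WT and 6 in Cbfb-cKO. Summed B cell markers (8 genes) ranged from 22.9 to 62.1 CPM in the former and from 104 to 538 CPM in the latter. The 5 neutrophil markers summed to between 1.56 and 9.03 CPM and between 46.0 and 161 CPM, with S100a8 and S100a9 at 0 counts in all 6 CD103+CD11b- samples. Of this sum in CD103-CD11b+ DCs, Csf3r alone had a mean of 39.3 CPM in WT and 107 CPM in Cbfb-cKO. Of the B cell markers 1 was called higher in WT and 5 in Cbfb-cKO, and of the neutrophil markers 2 in each. The 6 stromal markers summed to between 18.3 and 395 CPM and between 52.5 and 1303 CPM, the 7 epithelial markers to between 18.8 and 82.7 CPM and between 55.0 and 122 CPM, the 7 T cell markers to between 5.55 and 53.2 CPM and between 16.6 and 131 CPM, and the 5 plasma cell markers to between 81.9 and 369.6 CPM and between 277 and 584 CPM. Of these 4 lists, 2 epithelial markers were called higher and 1 lower in WT and 1 higher in Cbfb-cKO, where 6 of the 7 had a log2 fold change below 0, 1 stromal marker was called higher in Cbfb-cKO, and no T cell or plasma cell marker was called in either genotype by edgeR. Of the 5 plasmacytoid DC markers, 3 were called lower in WT CD103-CD11b+ DCs, with sums of 616 to 918 CPM beside 825 to 1885 CPM in WT CD103+CD11b- DCs, and 1 was called lower in Cbfb-cKO. The part of these cells in the levels of the NF-kB genes was not tested.

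Between the genotypes, none of the 10 genes was called by edgeR's quasi-likelihood test in either subset. These comparisons use the same samples as those between subsets and are not independent of them. In CD103+CD11b- DCs, where 1.02% of all tested genes were called (0.224% higher and 0.797% lower), 1 of the 10 had an unadjusted p under 0.05 (Nfkb2), as did 2166 of the 20580 genes tested, which is about the same share, and neither DESeq2 nor edgeR's likelihood ratio test called any. Nfkb2 had a mean of 171 ± 2.30 CPM (SD, n = 3) in WT and 210.0 ± 21.044 CPM (SD, n = 3) in Cbfb-cKO samples, with a log2 fold change of 0.30 ± 0.12 (SE), with a 95% interval of 0.03 to 0.56 and an edgeR adjusted p of 0.394. By separation alone, 5 of the 10 (Nfkb1, Nfkb2, Rel, Rela and Nfkbia) were higher in every Cbfb-cKO sample than in every WT sample, beside 7.51% of all tested genes, and 4 of these are subunits. None was lower in every Cbfb-cKO sample, beside 10.6%.

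The 95% intervals show what this comparison could not resolve. In CD103+CD11b- DCs the log2 fold change of Nfkbia, 0.54, had an interval of -0.068 to 1.14, and that of Rel, 0.47, had -0.24 to 1.18. Those of Nfkbiz, Nfkbie and Tnfaip3 were below 0, at -0.10, -0.13 and -0.19, with intervals that span 0. The remaining values were 0.28 for Nfkb1, 0.14 for Rela, 0.18 for Relb and 0.12 for Nfkbid. None of these was called, and single samples moved them, with Relb over 0.03 to 0.34 and Tnfaip3 over -0.44 to -0.053 when 1 sample was left out. Beside these values, the 6 cDC2 markers summed to 412 to 663 CPM in WT and 82.9 to 138 CPM in Cbfb-cKO samples, with 3 of the 6 called lower, and the 5 plasmacytoid DC markers to 825 to 1885 CPM and 337 to 678 CPM. The 7 cDC1 markers summed to 2861 to 3950 CPM in WT and 3984 to 4737 CPM in Cbfb-cKO samples, with none called. Egr2, an immediate early gene, was called higher in Cbfb-cKO CD103+CD11b- DCs, from 92.1 ± 26.6 to 279 ± 92.8 CPM (edgeR adjusted p = 0.0394). All 16 genes of the immediate early list had a log2 fold change above 0, with a median of 0.33. Their part in the levels of the NF-kB genes was not tested.

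In CD103-CD11b+ DCs the genotype comparison called 1.61% of all tested genes, and 1.11% of all were called higher. None of the 10 was among them, and 4 (Relb, Nfkb2, Rel and Nfkbid) had an unadjusted p under 0.05, as did 3590 of the 20580 genes tested. DESeq2 called 1 of them, Relb, and edgeR's likelihood ratio test called none. Relb had a mean of 129.98 ± 12.6 CPM (SD, n = 3) in WT and 192 ± 19.5 CPM (SD, n = 3) in Cbfb-cKO samples, and the genotypes were separate. Its log2 fold change was 0.56 ± 0.17 (SE), with a 95% interval of 0.20 to 0.92 and an edgeR adjusted p of 0.115 (adjusted p of 0.0299 by DESeq2). Leaving out replicate 3 of the Cbfb-cKO group gave 0.49. Beside these values, the 7 mature migratory DC markers summed to 244 to 413 CPM in WT and 550.0 to 695 CPM in Cbfb-cKO samples, and the 5 neutrophil markers to 46.0 to 57.0 CPM and 104 to 161 CPM, both without overlap. Most of the neutrophil sum was Csf3r, with means of 39.3 and 107 CPM beside mean sums of 51.5 and 128 CPM. Of the markers, Adgre1, Csf3r, Cdh17 and Ms4a1 were called higher and Itgae lower in Cbfb-cKO. Their lists did not all move with them, since 5 of the 7 epithelial and 4 of the 8 macrophage markers had log2 fold changes below 0 and 6 of the 7 cDC1 markers above 0. Of the B cell markers 7 of 8 were above 0, and of the neutrophil markers 4 of 5. The part of these cells in the levels of the NF-kB genes was not tested.

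Rel and Nfkbid had larger differences with wider intervals. For Rel the log2 fold change was 0.86 ± 0.33 (SE), with a 95% interval of 0.14 to 1.58 and an edgeR adjusted p of 0.207, and for Nfkbid it was 0.61 ± 0.27 (SE), with a 95% interval of 0.011 to 1.21 and an edgeR adjusted p of 0.279. Without replicate 3 of the Cbfb-cKO group these values were 0.37 and 0.29, so that library decides much of their size. Nfkb2 had a log2 fold change of 0.33 ± 0.12 (SE), with a 95% interval of 0.065 to 0.60 and an edgeR adjusted p of 0.194, and of 0.20 without that library. By separation alone, 3 of the 10 (Nfkb1, Nfkb2 and Relb) were higher in every Cbfb-cKO sample, beside 9.75% of all tested genes, and none was lower in every one, beside 10.3%. Rela was the gene with a value below 0, -0.17 with an interval of -0.44 to 0.11.

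The remaining inhibitors did not pass the test between the genotypes in CD103-CD11b+ DCs, and their intervals were wide. The log2 fold change was 0.12 for Nfkbia (95% interval -0.48 to 0.71), 0.074 for Nfkbiz (-0.58 to 0.73) and 0.22 for Tnfaip3 (-0.46 to 0.91). Without replicate 3 of the Cbfb-cKO group they were -0.29, -0.35 and -0.28, so their direction turned without that library. For Nfkbia and Nfkbiz it also turned without WT CD103-CD11b+ replicate 1, to -0.061 and -0.13. Nfkbie had 0.27 (-0.16 to 0.69), and Nfkb1 had 0.24 (-0.061 to 0.54), and without replicate 3 of the Cbfb-cKO group these were 0.037 and 0.061. The genotype effect was also compared between the subsets in an interaction test, in which 0.651% of all tested genes were called (0.554% above and 0.0972% below 0). None of the 10 was called by edgeR's quasi-likelihood test, its likelihood ratio test or DESeq2, and none had an unadjusted p under 0.05. The interaction ranged from -0.42 for Nfkbia to 0.49 for Nfkbid on the log2 scale, where values above 0 mean a larger rise in CD103-CD11b+ DCs.

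**Figure D2:**
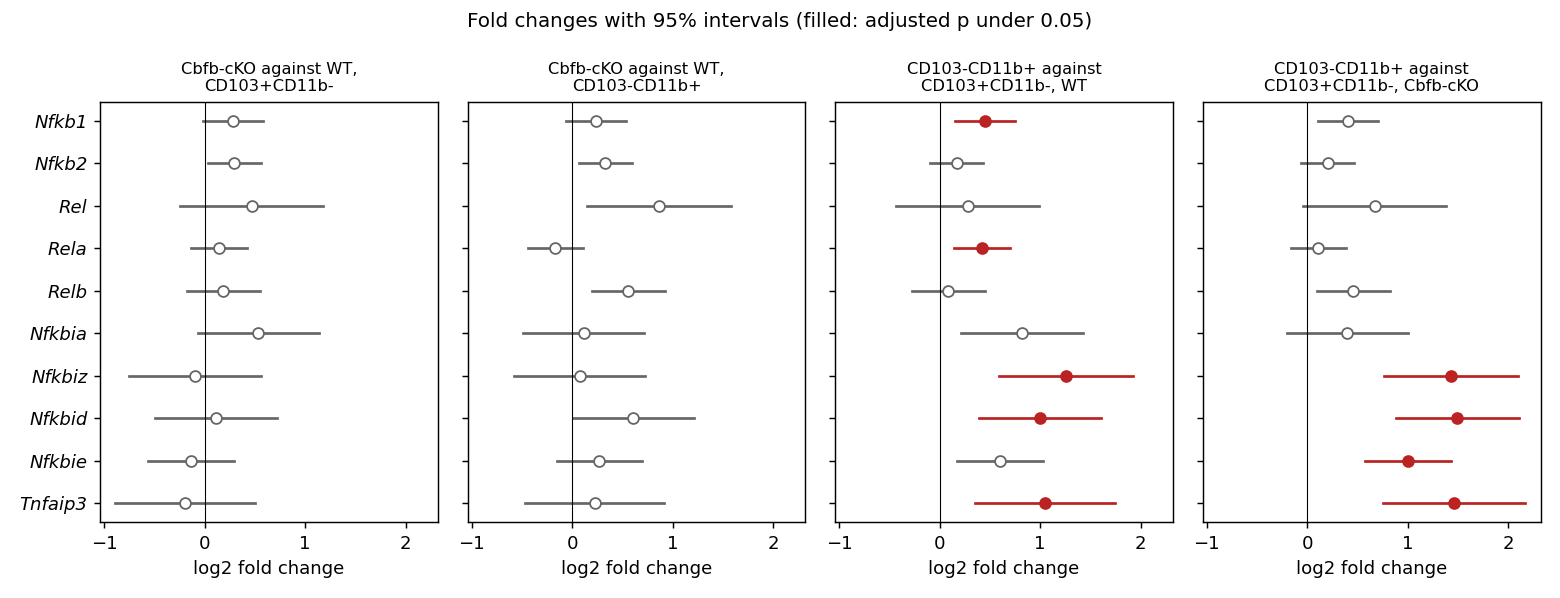
Log2 fold changes (horizontal axis) of the 10 NF-kB genes in the 4 comparisons, each point with its 95% interval; filled red points have an edgeR adjusted p under 0.05. No gene is filled in the 2 comparisons of genotypes, 5 are in the subset comparison in WT and 4 in that in Cbfb-cKO, all above 0.

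Levels were also set on a scale of CPM per kilobase of merged exon, the union of all annotated exons of a gene. This length can exceed that of the transcripts present, and it was 12061 bases for Nfkb1, so the order of genes depends on it. On this scale Rel and Nfkbia were the most abundant of the 10 in CD103+CD11b- DCs. Rel had 75.1 ± 6.11 (SD, n = 3) in WT and 104 ± 22.6 (SD, n = 3) in Cbfb-cKO, and Nfkbia had 69.6 ± 4.21 and 101 ± 14.6. In WT CD103-CD11b+ DCs Nfkbia (123 ± 33.4), Nfkbiz (101 ± 32.2), Tnfaip3 (97.2 ± 19.5) and Rel (91.1 ± 31.1) led, and these 4 neighbours in the order differed by less than their SDs. Relb was the lowest in 3 groups, at 31.6 ± 3.80 in WT CD103+CD11b- and 33.5 ± 3.23 in WT CD103-CD11b+ DCs. In Cbfb-cKO CD103-CD11b+ DCs Rel led with 165 ± 83.1, beside 134 ± 57.5 for Nfkbia, and Rela (48.7 ± 6.72) and Relb (49.3 ± 5.03) were the lowest. Neighbours differed by less than their SDs here too.

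Among the 5 subunits on this scale, Rel took the largest share in every sample. In CPM without length scaling, Nfkb1 stood above Rel in WT CD103-CD11b+ replicate 1 (589 beside 559 CPM) and replicate 2 (534.1 beside 533.4 CPM). The share of Rel per merged exon length was 34.2 ± 2.83% (SD, n = 3) in WT CD103+CD11b-, 37.9 ± 5.81% in Cbfb-cKO CD103+CD11b-, 33.3 ± 6.11% in WT CD103-CD11b+ and 42.8 ± 8.13% in Cbfb-cKO CD103-CD11b+ DCs. The share of Rela was 18.8, 23.3 and 19.2 percent in the WT and 14.5, 14.8 and 11.2 percent in the Cbfb-cKO CD103-CD11b+ samples, with no overlap. In CD103+CD11b- DCs it was 18.9, 17.9 and 18.976 percent in WT and 16.9, 16.3 and 16.4 percent in Cbfb-cKO, again lower in every Cbfb-cKO sample. These shares were compared with a two-sided exact permutation test, in which 3 samples against 3 cannot go below p = 0.1. That smallest exact p was reached by the share of Rela in both genotype comparisons and between the Cbfb-cKO subsets, which were the 3 without overlap among 20 comparisons of shares, and after adjustment over the 20 every one of them had p = 0.667 or more. Shares of 1 sum are not independent of each other, and Rel had its highest CPM in the group where the share of Rela was lowest.

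**Figure D3:**
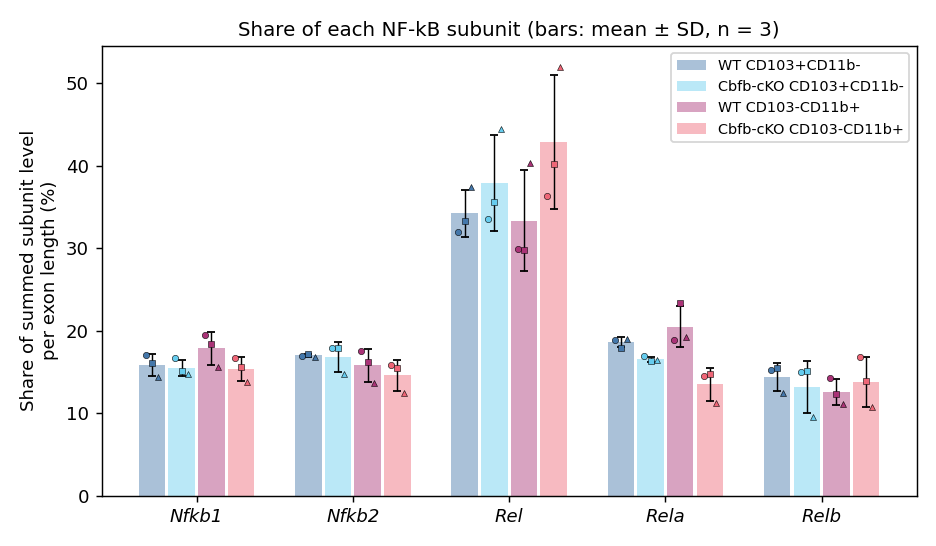
Share of each subunit in the summed level of the 5 subunits per merged exon length (vertical axis, percent), by group. Bars are means ± SD (n = 3) and points are samples. Rel has the tallest bar in every group, and the share of Rela is 13.5% in Cbfb-cKO and 20.5% in WT CD103-CD11b+ DCs.

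The other genes of the pathway were followed as 5 lists with 70 genes in all. Between the subsets, 12 of them were called higher and 4 lower in WT CD103-CD11b+ DCs, and 19 higher and 2 lower in Cbfb-cKO. Of all tested genes 11.8% were called higher and 7.25% lower in WT, and 9.32% and 7.06% in Cbfb-cKO, so the 4 of 70 called lower in WT are near the share of all genes, and the shares of single lists are read against these too. Between the genotypes none was called in CD103+CD11b- and 1 in CD103-CD11b+ DCs by edgeR's quasi-likelihood test. In Cbfb-cKO CD103-CD11b+ replicates 1 to 3 the adaptors and TRAFs summed to 2367, 2546 and 3795 CPM and the target genes to 2397, 2921 and 5443 CPM. Replicate 3 therefore weighs on the means and SDs of single genes below. Without it, 16 of the 70 were called higher and 4 lower between the Cbfb-cKO subsets.

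Of 11 receptors that signal to NF-kB, 3 were called higher in WT and 4 in Cbfb-cKO CD103-CD11b+ DCs, with medians over the list of 0.50 and 0.78 on the log2 scale. Il18rap, an accessory chain of the IL-18 receptor, rose from 2.06 ± 0.358 to 30.8 ± 10.4 CPM (edgeR adjusted p = 0.00196) in WT and from 2.37 ± 2.69 to 27.5 ± 2.40 CPM (edgeR adjusted p = 0.00163) in Cbfb-cKO. Il1rap, the shared accessory chain of IL-1 family receptors, rose from 10.3 ± 0.912 to 21.2 ± 3.42 CPM (edgeR adjusted p = 0.00951) in WT, and so did Ltbr, the lymphotoxin beta receptor that feeds the alternative pathway, from 60.1 ± 6.07 to 78.3 ± 4.06 CPM (edgeR adjusted p = 0.0489). In Cbfb-cKO the other calls were Tnfrsf1b, a receptor for TNF, from 131 ± 17.2 to 344 ± 141 CPM (edgeR adjusted p = 0.00749), Tnfrsf13b, from 33.8 ± 2.86 to 84.7 ± 20.4 CPM (edgeR adjusted p = 0.0202), and Il18r1, the ligand-binding chain of the IL-18 receptor, from 0.286 ± 0.0919 to 7.43 ± 3.94 CPM (edgeR adjusted p = 0.0350). Tnfrsf13c, the BAFF receptor of B cells, was the gene of the 70 called between the genotypes, and it rose in Cbfb-cKO CD103-CD11b+ DCs from 15.4 ± 6.54 to 52.6 ± 16.9 CPM (edgeR adjusted p = 0.0380). Summed B cell markers were 111, 297 and 163 CPM in the WT and 538, 289.6 and 104 CPM in the Cbfb-cKO samples of that subset. Ebf1 alone had a mean of 134.3 CPM in WT, beside a mean sum of 190.3 CPM. Of the 8 markers, 7 had a log2 fold change above 0 and 1 below 0, with a median of 1.55. Of these, Ms4a1 was called higher, from a mean of 5.49 CPM in WT to 72.99 CPM in Cbfb-cKO. The part of B cells in the level of Tnfrsf13c was not tested. No gene of the 70 was called there without WT CD103+CD11b- replicate 1 or 2, WT CD103-CD11b+ replicate 2, Cbfb-cKO CD103+CD11b- replicate 1 or 2 or Cbfb-cKO CD103-CD11b+ replicate 2.

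The adaptors and TRAFs, 16 genes, had 2 called higher in WT (12.5%, near the share of all genes) and 4 in Cbfb-cKO. Myd88, the adaptor of Toll-like and IL-1 family receptors, rose from 94.9 ± 6.47 to 122 ± 5.56 CPM (edgeR adjusted p = 0.0213) in WT CD103-CD11b+ DCs. Irak3, a negative regulator of that route, rose in both genotypes, from 1.52 ± 2.33 to 17.8 ± 7.13 CPM (edgeR adjusted p = 0.0270) in WT and from 2.62 ± 2.18 to 20.5 ± 1.69 CPM (edgeR adjusted p = 0.0451) in Cbfb-cKO. In Cbfb-cKO the other calls were Malt1, a paracaspase, from 312 ± 51.1 to 1091 ± 501 CPM (edgeR adjusted p = 0.00321), Traf3, which restrains the alternative pathway, from 104 ± 25.5 to 189 ± 7.44 CPM (edgeR adjusted p = 0.00376), and Irak2, from 56.8 ± 3.57 to 153 ± 80.1 CPM (edgeR adjusted p = 0.0143).

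Among 11 kinases of the IKK complex and upstream of it, more were called lower than higher in WT. Chuk, which encodes IKK-alpha, fell in CD103-CD11b+ DCs in both genotypes, from 318 ± 11.3 to 163 ± 19.9 CPM (edgeR adjusted p = 0.00229) in WT and from 434 ± 65.2 to 241 ± 41.1 CPM (edgeR adjusted p = 0.00285) in Cbfb-cKO. Tab2 fell in WT, from 290.3 ± 21.4 to 206 ± 8.42 CPM (edgeR adjusted p = 0.0166). In Cbfb-cKO Ikbkb, which encodes IKK-beta, rose from 354 ± 37.2 to 533 ± 75.7 CPM (edgeR adjusted p = 0.00949), and the IKK-related kinase Ikbke rose from 4.93 ± 0.657 to 20.5 ± 7.10 CPM (edgeR adjusted p = 0.00481).

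The 10 other IkB genes and ubiquitin editors had 2 called higher and 1 lower in WT, and 2 higher in Cbfb-cKO. Tnip3, which encodes a partner of the Tnfaip3 product, had the largest differences of that list, from 12.5 ± 1.70 to 186 ± 27.0 CPM (edgeR adjusted p = 0.000357) in WT and from 13.2 ± 1.26 to 102 ± 72.8 CPM (edgeR adjusted p = 0.000835) in Cbfb-cKO. Bcl3, a nuclear IkB protein, rose from 39.1 ± 4.51 to 85.5 ± 18.1 CPM (edgeR adjusted p = 0.00283) in WT and from 38.924 ± 5.81 to 72.8 ± 8.26 CPM (edgeR adjusted p = 0.00666) in Cbfb-cKO. The ubiquitin ligase gene Itch fell in WT, from 386 ± 18.5 to 296 ± 24.7 CPM (edgeR adjusted p = 0.0242).

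Of 22 known NF-kB target genes, 5 were called higher and 1 lower in WT, and 7 higher and 1 lower in Cbfb-cKO CD103-CD11b+ DCs. The gene that fell was Il12b, the p40 chain of IL-12 and IL-23, from 39.2 ± 4.96 to 0.580 ± 0.257 CPM (edgeR adjusted p = 5.79e-05) in WT and from 74.5 ± 22.2 to 3.34 ± 2.03 CPM (edgeR adjusted p = 4.90e-05) in Cbfb-cKO, so the targets did not all follow the inhibitors. The cytokine gene Il1b rose in both genotypes, in Cbfb-cKO from 66.3 ± 19.6 to 354 ± 157 CPM (edgeR adjusted p = 0.000484), and the chemokine gene Cxcl2 rose from 24.1 ± 13.2 to 86.8 ± 18.9 CPM (edgeR adjusted p = 0.0352) in WT and from 8.22 ± 3.73 to 61.9 ± 46.8 CPM (edgeR adjusted p = 0.00617) in Cbfb-cKO. Ier3 rose in WT, from 13.5 ± 8.31 to 84.5 ± 41.5 CPM (edgeR adjusted p = 0.00761), as did Tnfsf9, the ligand of 4-1BB, from 16.8 ± 4.48 to 107 ± 56.3 CPM (edgeR adjusted p = 0.00949). Tnfsf9 was also called higher in Cbfb-cKO, from 24.2 ± 8.24 to 92.8 ± 70.6 CPM (edgeR adjusted p = 0.0314). Ptgs2, the inducible cyclooxygenase, rose in Cbfb-cKO, from 34.9 ± 21.8 to 716 ± 433 CPM (edgeR adjusted p = 0.00115).

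Within groups, most of the 10 genes deviated together. Over the 12 samples as deviations of log2 CPM from the group means, 40 of the 45 pairs of genes had a positive correlation, with a median Pearson r of 0.63 and a range from -0.24 to 0.99. The 5 negative values all involved Relb. The highest were those of Nfkbia with Nfkbiz, and of Rela with Nfkbiz and with Nfkbia. All genes are read from the same 12 libraries, which differ in depth, and these values are a description.

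Summed over the 10 genes, the level was 2264, 2200.4 and 2348 CPM in WT CD103+CD11b-, 2324, 2627 and 2957 CPM in Cbfb-cKO CD103+CD11b-, 3006, 3289.9 and 4220.1 CPM in WT CD103-CD11b+ and 3383, 3723 and 6541 CPM in Cbfb-cKO CD103-CD11b+ samples, in the order of replicates 1 to 3. Replicate 3 was the highest in each group. The 16 immediate early genes, which include Fos, Jun, Egr1, Atf3 and heat shock genes that tissue dissociation can induce, summed to 4155, 3812 and 4432 CPM, 4050.0, 4549.7 and 7958 CPM, 4391, 6207 and 6654 CPM and 4383, 5414 and 9415 CPM in the same order. Within each of the 4 groups both sums put the samples in the same order, which was noticed after the values were seen. Nfkbiz, Tnfaip3 and Rela had that order in all 4 groups, and Nfkb1 and Relb in none. Replicate 3 was the highest for 5, 7, 8 and 10 of the 10 genes in these groups, beside 41.6%, 32.1%, 29.8% and 32.8% of all tested genes. The part of the immediate early response in the levels of the NF-kB genes was not tested. Without replicate 3 of all 4 groups, a setting chosen after the values were seen, the subset comparison called 4 of the 10 in WT (Nfkbia, Nfkbiz, Nfkbid and Tnfaip3) and the same 4 as before in Cbfb-cKO, all higher, and none of the 10 was called between the genotypes.

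**Figure D4:**
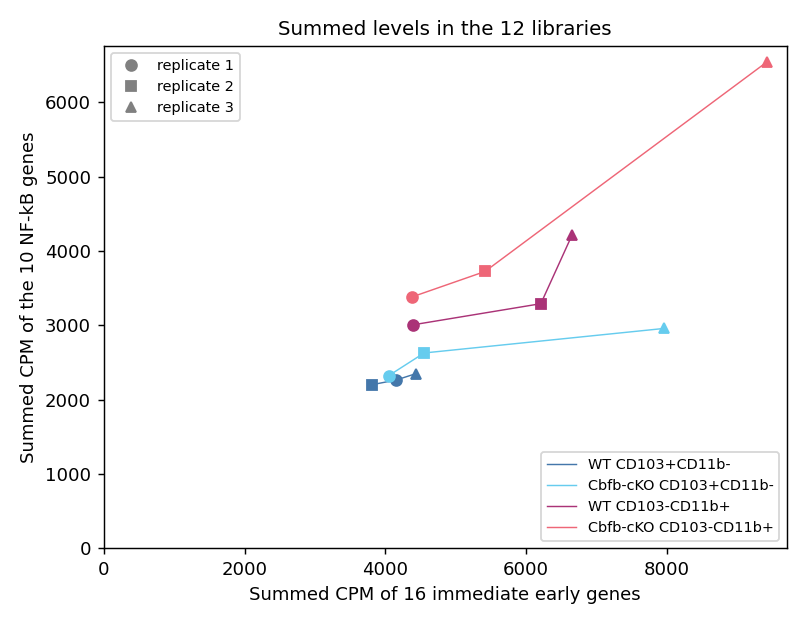
Summed CPM of the 10 NF-kB genes (vertical axis) against summed CPM of 16 immediate early genes (horizontal axis), with 1 point per sample, a symbol for each replicate number and a line joining the samples of a group. Each line rises from left to right, and replicate 3 is at the right end of every line.

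Genes most like each member were named by Pearson r of log2 CPM over the 12 samples among 10336 genes that had at least 10 counts in all of them. Nfkbiz and Tnfaip3 were each other's nearest gene (r = 0.984), and Csrnp1 and Bhlhe40 came next for both. Nfkbia was most like Zfp36l1 (0.964), Junb (0.956) and Neat1 (0.948). Rel was most like Rab20 (0.977), Wnk1 (0.974) and Plek (0.973), and Rela like Samd4b (0.934), Klf10 (0.927) and Tnfsf9 (0.926). Nfkbid was nearest to Ext1 (0.977), Zfp667 (0.970) and C920009B18Rik (0.965), and Nfkbie to Lilrb4a (0.974), Gm37639 (0.968) and Ehd1 (0.962). For Nfkb1 the nearest were Tgfb1 (0.934), Zc3hav1 (0.934) and Gbp2 (0.926), for Nfkb2 Etv3 (0.945), Gm43430 (0.939) and Mif4gd (0.919), and for Relb Plxnc1 (0.972), Gm36638 (0.933) and Pcgf5 (0.921). The gene Gm43430 overlaps Nfkb1 without shared exons. The samples fall into 4 groups and differ in depth, and every gene is read from the same libraries, so these values are a description of this set of libraries.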

How the data were processed

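RNA was sequenced from DCs sorted from the small intestine, by a full-length method for small inputs (RamDA-seq) with Tn5 libraries, and reads were trimmed with Trim Galore, mapped to mm10 with STAR 2.7, filtered for low mapping quality and duplicates, and counted with HTSeq without regard to strand. The authors deposited raw counts per gene, 1 file per sample, without normalization. The counter's 5 summary lines were left out, and 53706 of 53801 gene IDs matched GENCODE M21 (GRCm38). Genes that reached 5 counts in any sample entered 1 model of the 4 groups with TMM scaling and the quasi-likelihood test (edgeR 4.0.16 in R 4.3.3, with limma 3.58.1), and p was adjusted by Benjamini-Hochberg. The procedure was tested on simulated counts. Tables, figures and exact permutation tests were made with Python 3.11.15, pandas 2.3.3, SciPy 1.17.1 and matplotlib 3.10.9. Log2 CPM used a prior count of 2. Alternatives were other filters, RLE scaling, DESeq2 1.42.0, the likelihood ratio test, fits to 6 samples, a replicate block and leaving out each sample.

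The 10 genes and all lists were chosen with earlier results of these data known. Named pathway genes were the called ones, up to 4 per list and comparison by smallest p. Replicate numbers are shared by the groups, and the labels do not say whether the subsets of a number came from the same mouse. The main model has no term for such a pairing. Samples of the same number deviated together in the Cbfb-cKO subsets (correlations of deviations 0.112, 0.321 and 0.354), but not in every pair of the WT subsets (0.357, -0.085 and 0.352). Between the genotypes the values were 0.132, -0.091 and 0.070 in CD103+CD11b- and 0.02, 0.422 and 0.186 in CD103-CD11b+ DCs. Depth of 2161929 to 5863484 counts per sample sets the counting error, and p-values measure the spread between the samples within a group, which came from different mice.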

Additional observations from a re-analysis of the deposited data

How the results depend on the processing

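Of the values for single NF-kB genes under the alternatives, 948 kept their direction and their side of the threshold, 24 gained a call, 39 lost one and 29 changed direction, and the cause was not tested. No alternative called any of the 10 between the genotypes in CD103+CD11b- DCs or in the interaction. In CD103-CD11b+ DCs the genotype comparison called 1 under DESeq2 (Relb) and 2 with the replicate block (Rel, 0.82, adjusted p = 0.0444 by edgeR, and Nfkbid, 0.58, adjusted p = 0.0143 by edgeR). Samples of the same number there had correlations of deviations of 0.02, 0.422 and 0.186. Between the WT subsets the number called ranged from 0 to 7 when 1 sample was left out, and was 7 with the replicate block, with DESeq2, with the likelihood ratio test and with 5 counts required in every sample, each adding Nfkbia and Nfkbie. Between the Cbfb-cKO subsets it ranged from 4 to 5, was 6 with DESeq2, which added Nfkb1 and Relb, and was 5 with the replicate block, which added Rel and changed no other call there. A fit to the 6 Cbfb-cKO samples alone called 3 of the 4, with Tnfaip3 at an edgeR adjusted p of 0.0522. Over all genes, the genotype comparison called 46 higher and 164 lower in CD103+CD11b- DCs by the quasi-likelihood test and 235 and 436 by DESeq2, in CD103-CD11b+ DCs 228 and 103 against 689 and 486, and the interaction 114 and 20 against 334 and 174.

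Of the 70 other pathway genes, the genotype comparison in CD103+CD11b- DCs called 0 to 1 when 1 sample was left out, 1 with no filter, 3 with DESeq2, 2 with the likelihood ratio test, 1 with the replicate block, 2 in a fit to 6 samples and 2 without replicate 3 of all groups. In CD103-CD11b+ DCs these were 0 to 2, 4, 9, 8, 4, 0 and 3, with 6 when 5 counts were required in every sample and 2 with filterByExpr. Between the WT subsets 8 to 23 were called when 1 sample was left out. The interaction called 1 with DESeq2, 1 with the likelihood ratio test and 2 with the replicate block. Shares of subunits without overlap numbered 3 to 8 of 20 when 1 sample was left out.

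With 1 sample left out, the log2 fold change between genotypes ranged over -0.073 to 0.34 for Nfkbid in CD103+CD11b- DCs, and over -0.29 to 0.33 for Nfkbia, -0.35 to 0.33 for Nfkbiz and -0.28 to 0.47 for Tnfaip3 in CD103-CD11b+ DCs. Between subsets it ranged over -0.081 to 0.39 for Rel and -0.071 to 0.13 for Relb in WT, and over -0.0028 to 0.15 for Rela and -0.0042 to 0.55 for Nfkbia in Cbfb-cKO. The interaction ranged over -0.22 to 0.042 for Nfkb1, -0.10 to 0.12 for Nfkb2, -0.10 to 0.71 for Rel, -0.25 to 0.40 for Nfkbiz and -0.084 to 0.66 for Tnfaip3, and that of Nfkb2 was -0.0018 by DESeq2. Without replicate 3 of all groups, chosen after seeing the data, the genotype difference in CD103-CD11b+ DCs was -0.061 for Nfkbia, -0.076 for Nfkbiz and -0.10 for Tnfaip3, the subset difference was -0.056 for Relb in WT, -0.026 for Nfkb2 and -0.013 for Rela in Cbfb-cKO, and the interaction of Nfkb2 was -0.15.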
